A study of Rattus norvegicus with 11 samples.

Results

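The genes described here encode collagens and the other proteins of the extracellular matrix, together with the enzymes that process and cross-link them. A list of 50 gene symbols set the members, and a gene was a member if its symbol was in the deposited tables. Of the 50 genes, 49 were in the tables, which held read counts for 24481 genes and FPKM, which scales the fragments of a gene by its length and by the size of the library, for 24205; Tnxb was not listed. RNA of the whole ileum of SD rats aged 6 to 8 weeks, all male by the methods of the study, was sequenced in 3 control libraries, 4 libraries of rats with severe acute pancreatitis (SAP) and 4 libraries of rats with SAP that received JZL184. SAP was induced by infusing 3% sodium taurocholate, a bile salt, backwards into the pancreatic duct, and the methods used here do not say whether control rats had sham surgery. JZL184, which inhibits MAGL, the enzyme that breaks down the endocannabinoid 2-AG, was injected intraperitoneally at 10 mg/kg, control and SAP rats were injected with vehicle, and rats were killed 24 h later. The labels name the treatment of the control libraries a control plasmid and title the SAP libraries oil, and they name the material both ileum tissue and an epithelial cell. Below, treated libraries or groups mean all those of SAP rats, with JZL184 or with vehicle.

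The extracellular matrix is the protein scaffold between and beneath cells. Fibrillar collagens are triple helices that assemble into fibrils and bear tension, collagen IV and the laminins form the basement membrane on which epithelium, vessels and muscle rest, and fibrillin and elastin form elastic fibres. In the gut wall most matrix genes are transcribed by fibroblasts, smooth muscle and endothelium rather than by the epithelium, and after injury a provisional matrix that contains fibronectin, tenascin C and versican is laid down before fibrillar collagen is remodelled.

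Totals ranged from 26341299 to 33847135 reads per library, and the members took 0.232% to 0.24% of the reads in control, 0.273% to 0.446% in SAP and 0.217% to 0.371% in JZL184 libraries. The first and second control libraries were nearly the same library, with a chi-square per gene of 2.805 where all other pairs within a group had 77.48 or more. They were counted as 1 sample, so that the control group had 2 samples. SAP library 2 had 20 reads on Y-linked genes (Eif2s3y, Kdm5d, Uty) and 7826 on LOC100911498, the Xist locus, where all other libraries had 1222 to 4665 and at most 56, so it went against the sex given for the rats. SAP libraries 1 and 2 also stood apart from SAP libraries 3 and 4, and estimates without the pair are given beside some of the results that it moved. All markers of smooth muscle, fibroblasts and endothelium that were looked for were above 0 in every library, so RNA from beneath the epithelium was present. Since the samples are pieces of tissue, fewer cells of a type and less RNA per cell cannot be told apart.

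Levels of the 49 members spanned more than 3 orders of magnitude. Mgp, which encodes matrix Gla protein, an inhibitor of calcification made by vessel wall and stroma, had the highest mean FPKM. Sparc and Sparcl1, collagen-binding matricellular proteins, followed, and the least abundant member was Lama2, the laminin alpha2 chain of muscle basement membrane, with group means of 0.0875, 0.1225 and 0.1825 FPKM in control, SAP and JZL184. Summed over the members, FPKM was 707 ± 55.1 (SD, n = 2) in control, 1659 ± 518 (n = 4) in SAP and 1797 ± 544 (n = 4) in JZL184 libraries. Without Mgp the same sums were 537 ± 1.23, 692 ± 147 and 409 ± 143. The higher sums of the treated groups thus lay mostly in Mgp. It took 3.1% to 4.95% of the members' reads in control, 6.59% to 23.9% in SAP and 19.2% to 43.6% in JZL184 libraries.

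By class, the 5 fibrillar collagens summed to 66.6 ± 12.9 FPKM in control, 87.2 ± 28.8 in SAP and 30.9 ± 14.1 in JZL184 libraries. The 3 chains of collagen VI, a beaded filament that links cells to fibrils, summed to 65.2 ± 10.7, 94.1 ± 36.8 and 50.1 ± 31.5. The 14 basement membrane genes summed to 109 ± 4.6, 171 ± 46.6 and 111 ± 25.6. The 4 cross-linking and processing genes summed to 16.9 ± 1.77, 15.0 ± 5.54 and 7.55 ± 2.08. All 4 JZL184 libraries were below both control samples in the sums of fibrillar collagens and of cross-linking and processing genes. The same held for fibril-associated collagens (0.77 to 1.53 against 1.575 and 1.8 FPKM). The fibrillar sum of every JZL184 library (17.7 to 44.9) was also below that of every SAP library (47.2 to 116.1). So was the cross-linking and processing sum (5.36 to 10.15 against 11.32 to 23.25). Most of that sum lay in the processing gene Pcolce, with means of 13.91, 9.45 and 5.04 FPKM in control, SAP and JZL184. Lox, of the same class, was above control in every JZL184 library.

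**Figure D1:**
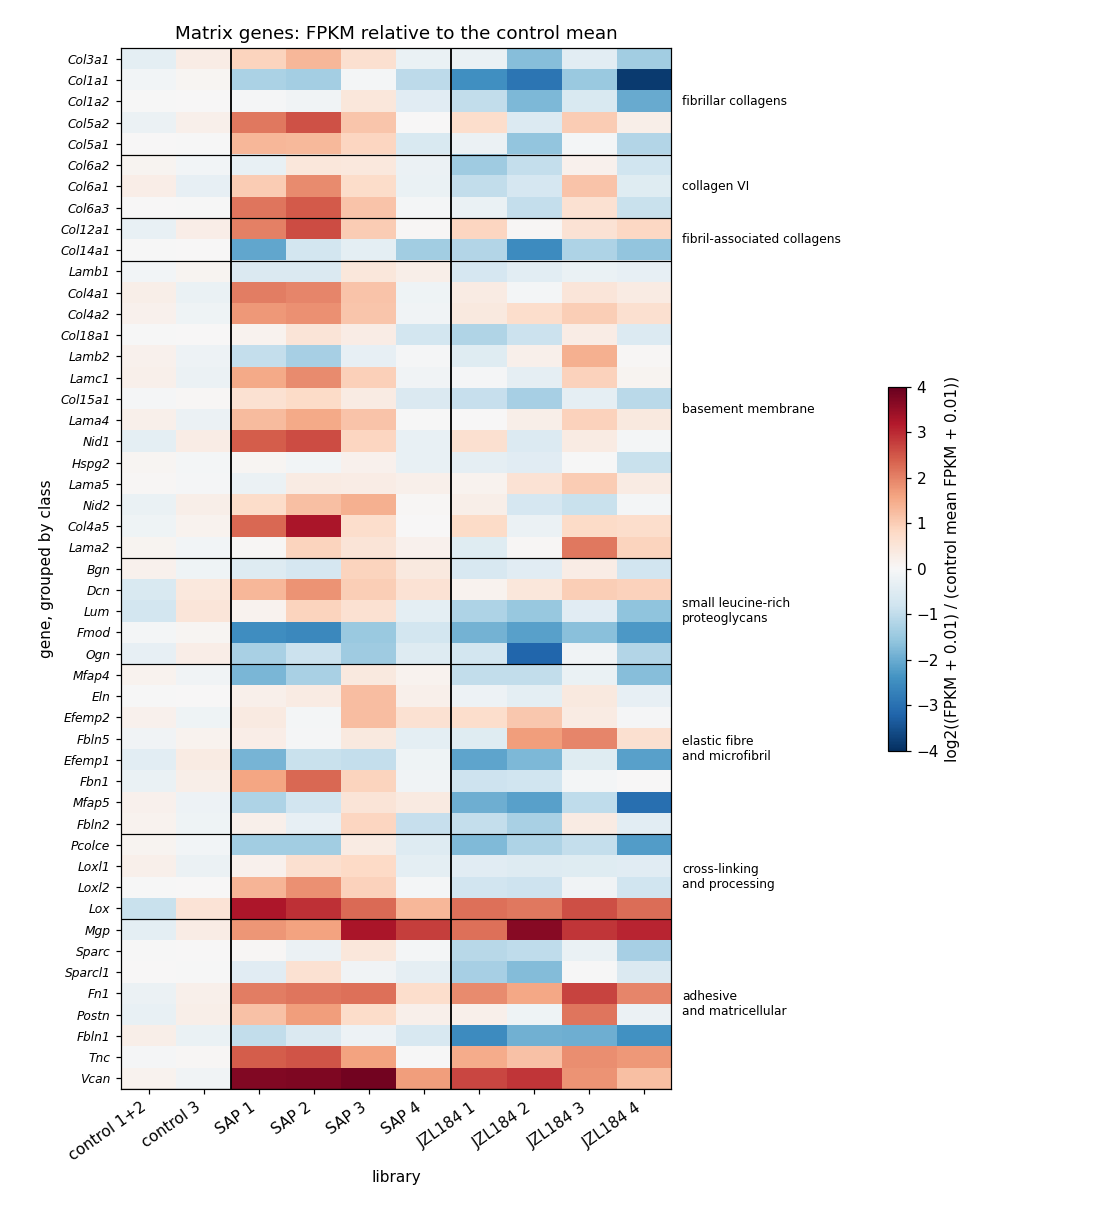
Heat map of the 49 members (rows, grouped by class) in the 2 control samples, 4 SAP and 4 JZL184 libraries (columns); colour is the log2 of FPKM over the control mean, with 0.01 added to both. Mgp, Lox and Vcan are above the control mean in all SAP and JZL184 libraries, Fmod and Col14a1 are below it in all of them, and SAP library 4 is closest to control.

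The heat map of all members showed how far the SAP libraries differed among themselves. The median member had 1.2, 1.71, 1.67 and 0.914 times the control mean in SAP libraries 1 to 4, and 20, 22, 14 and 3 members were above 2 times the control mean. In JZL184 libraries 1 to 4 the median member had 0.718, 0.68, 1.23 and 0.748 times the control mean, and 13, 16, 5 and 15 members were below 0.5 times it. JZL184 library 3 was thus above control where the other JZL184 libraries were below, and its summed FPKM of 6 smooth muscle markers was 2115 against 366.7 to 939.7 in the other JZL184 libraries. Its sums of 5 fibroblast markers (64.19) and 5 endothelial markers (35.39) were also the highest of its group. SAP libraries 1 and 2, with the most members above 2 times the control mean, had the lowest smooth muscle sums of their group (1228 and 801). The part of these cells in the levels of the members was not tested.

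A gene was called if edgeR's quasi-likelihood test gave a p below 0.05 after Benjamini-Hochberg adjustment over all genes tested and its fold change was above 2 or below 0.5. Values after ± are SD for FPKM and standard errors (SE) for log2 fold changes. All 49 members passed the filter on low counts in every comparison.

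Rats with SAP were compared with control rats to ask what pancreatitis did to matrix RNA of the ileum. No member was called, and their smallest adjusted p was 0.366. The members with the largest positive estimates were Vcan, Lox and Mgp, and those with the largest negative ones were Fmod, Col14a1 and Ogn. The log2 fold change was above 0 for 29 members and below 0 for 20, with a median of 0.24 against 0.06 over the 16029 genes tested. Among all genes edgeR called 0 (0.0%) as well. At an unadjusted p below 0.05, 9 members were higher, where 5.69% of all genes were, and 4 were lower, where 3.4% of all genes were. DESeq2 called 4 members higher (Vcan, Lox, Mgp and Fn1; 0.795% of all genes) and 0 lower (0.341%), and limma-voom called 0 in either direction (0.0499% and 0.0374%). FPKM of the groups did not overlap for 6 members that were higher (Mgp, Fn1, Dcn, Eln, Vcan and Lox; 13.4% of all genes) and 3 that were lower (Fmod, Ogn and Col14a1; 8.65%). These shares of the members were close to those of all genes for FPKM order. Without SAP libraries 1 and 2, edgeR called Mgp (log2 fold change 2.97, adjusted p = 0.00304; 3.14e-19 to 0.943 over all alternatives).

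JZL184 rats were compared with SAP rats to ask what the inhibitor changed once pancreatitis was established. No member was called, with a smallest adjusted p of 0.0851 for Fbln1, but 41 of 49 estimates were below 0, where 52.6% of the 15308 genes tested were. The median was -0.58 against -0.05 over all genes, and all 5 fibrillar collagens, all 3 collagen VI chains and all 4 cross-linking and processing genes had estimates below 0. Among all genes edgeR called 0 (0.0%). At an unadjusted p below 0.05, 16 members were lower, where 11.1% of all genes were, and 2, Lamb2 and Fbln5, were higher, where 10.3% of all genes were. DESeq2 called 10 members lower (3.41% of all genes) and 0 higher (3.57%). Limma-voom called 7 lower (2.39%) and 0 higher (2.18%), namely Col1a1, Col1a2, Col3a1, Col15a1, Fbln1, Lum and Loxl2, and all 7 were among the 10 of DESeq2. The other 3 were Col5a1, Col6a3 and Fbn1. FPKM was lower in every JZL184 than in every SAP library for 7 members (Sparc, Col1a1, Col1a2, Fbln1, Lum, Loxl1 and Loxl2; 6.53% of all genes) and higher for 0 (4.7%). Without SAP libraries 1 and 2 the median was -0.65, edgeR called 0 members and DESeq2 called 3 lower (Col1a1, Fbln1 and Mfap5).

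JZL184 rats were also compared with control rats, to see where the ileum of JZL184 rats stood against control tissue. Mgp, Fn1 and Tnc rose, and Col1a1, Fbln1 and Fmod fell. These 6 of 49 members were 12.2% of the members, where 2.16% of the 15916 genes tested were called; 3 were higher (1.02% of all genes) and 3 were lower (1.14%). The other 43 members did not pass, and the median of all 49 was -0.38 against 0.08 over all genes, with 20 estimates above 0 and 29 below. At an unadjusted p below 0.05, 5 members were higher (13.8% of all genes) and 12 were lower (12.5%). DESeq2 called 5 higher (6.28%), adding Vcan and Lox, and 6 lower (5.42%), adding Col1a2, Pcolce and Col14a1. Limma-voom called 5 higher (8.48%) and 12 lower (9.78%). FPKM did not overlap for 7 higher (18.5% of all genes) and 16 lower members (18.1%). The calls rested on few samples: with any 1 of the 2 control samples, JZL184 library 2 and JZL184 library 4 left out, edgeR called 0 of the 49, and with JZL184 library 3 left out it called 12.

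**Figure D2:**
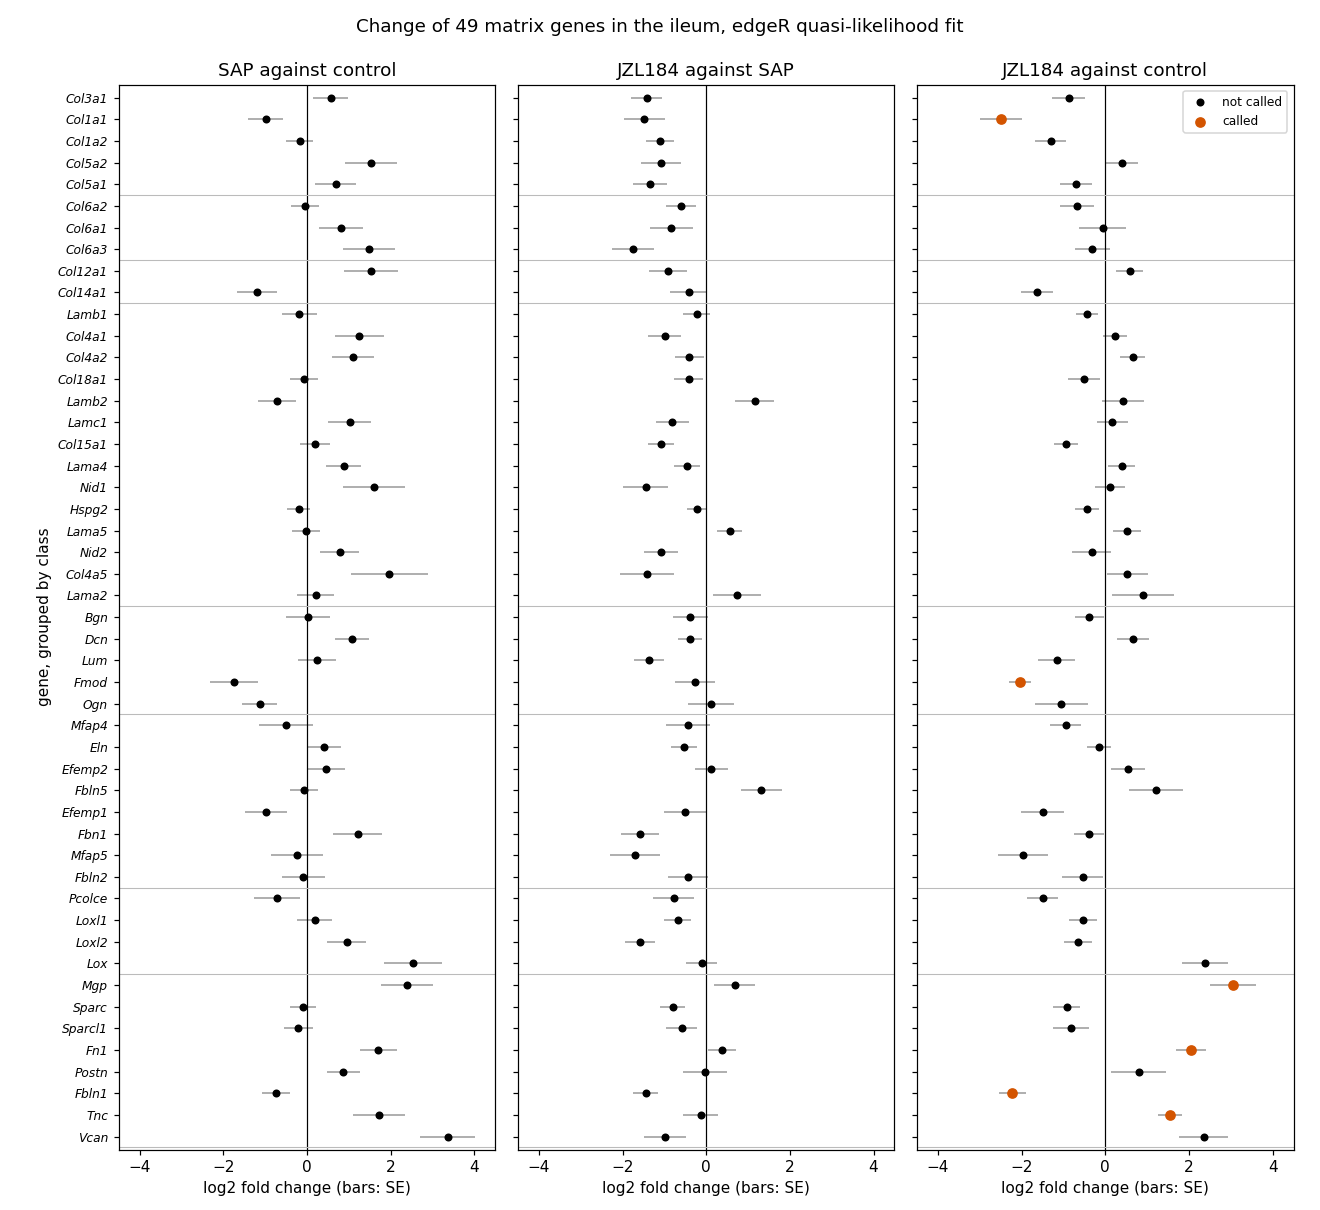
Log2 fold changes (x axis) of the 49 members (y axis, grouped by class) in the 3 comparisons, with bars for the standard error from edgeR; orange points were called. In the middle panel 41 of 49 points lie left of 0, and the 6 called members are all in the right panel.

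The plot of fold changes shows the members in their classes. SAP samples enter 2 of its panels and control samples 2, so the panels are not independent of each other.

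Among fibrillar collagens, the triple helix of collagen I is made of chains from Col1a1 and Col1a2, collagen III of Col3a1, and collagen V, which nucleates fibrils, of Col5a1 and Col5a2. Col1a1 FPKM was 18.6 and 21.3 in the control samples, 8.22, 7.78, 19.1 and 9.65 in SAP libraries 1 to 4 and 3.63, 2.65, 7.2 and 1.4 in JZL184 libraries 1 to 4. Every JZL184 library was below every SAP library and both control samples, and SAP library 3 was within the control range. The JZL184 mean was 0.186 of the control mean (log2 fold change -2.49 ± 0.5 SE, edgeR adjusted p = 0.0462), and the change against SAP was -1.48 ± 0.49 (adjusted p = 0.149). SAP against control had -0.99, and -0.56 without SAP libraries 1 and 2. Col3a1 FPKM was 23.4 and 38.0 in control, 56.9, 77.4, 48.3 and 25.4 in SAP and 25.6, 9.35, 23.0 and 11.8 in JZL184 libraries. SAP library 4 overlapped both other groups, and its other 3 libraries were above all of control and JZL184. Col5a2 and Col5a1 had log2 fold changes of 1.52 and 0.68 in SAP against control and of -1.08 and -1.35 in JZL184 against SAP, none called.

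Collagen VI is a heterotrimer of chains from Col6a1, Col6a2 and Col6a3. Col6a2 had FPKM of 46.8 and 40.0 in control, 35.1, 59.6, 58.5 and 36.8 in SAP and 16.2, 22.4, 49.4 and 24.8 in JZL184 libraries. Col6a1 had 24.4 and 16.1 in control, 40.9, 75.2, 33.3 and 16.8 in SAP and 10.3, 12.7, 45.0 and 14.4 in JZL184 libraries. Col6a3 had 1.56 and 1.55 in control, 6.85, 8.51, 3.44 and 1.47 in SAP and 1.3, 0.8, 2.36 and 0.83 in JZL184 libraries. JZL184 library 3 was the highest of its group for all 3 chains, and SAP library 4 was near control. Col6a3 had the lowest estimate of the members in JZL184 against SAP (-1.75 ± 0.5, edgeR adjusted p = 0.12), which was -0.86 without SAP libraries 1 and 2. Of the fibril-associated collagens, which sit on the surface of fibrils, Col14a1 had 1.12 and 1.13 in control, 0.26, 0.68, 0.86 and 0.42 in SAP and 0.5, 0.19, 0.47 and 0.37 in JZL184 libraries. All treated libraries were below both control samples, with log2 fold changes of -1.2 ± 0.48 in SAP (adjusted p = 0.459) and -1.64 ± 0.38 in JZL184 (adjusted p = 0.0631). Col12a1 had estimates of 1.53, -0.91 and 0.58 in the 3 comparisons, none called.

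Of the 14 basement membrane genes, edgeR called 0 in each comparison. At an unadjusted p below 0.05, 0 passed in SAP against control, 1 higher and 4 lower in JZL184 against SAP and 1 lower in JZL184 against control, and with control libraries 1 and 2 merged and all SAP libraries kept DESeq2 and limma-voom called Col15a1 alone, lower against SAP with both and against control with limma-voom. With the 3 control libraries kept separate, DESeq2 also called Col4a5 (2.02, adjusted p = 0.0491) and Nid1 (1.71, adjusted p = 0.0412) higher in SAP against control, and over all fits their adjusted p reached 1.0. Col4a1 and Col4a2 encode the chains of the main collagen IV trimer and lie head to head, read in opposite directions from a shared promoter region. Col4a1 had FPKM of 22.1 and 15.6 in control, 78.4, 73.6, 41.3 and 16.7 in SAP and 23.9, 17.9, 26.1 and 23.9 in JZL184 libraries. Col4a2 had 11.9 and 9.42 in control, 35.2, 37.7, 23.2 and 9.73 in SAP and 14.1, 17.2, 21.2 and 16.4 in JZL184 libraries. Both genes were highest in SAP libraries 1 and 2 and near control in SAP library 4. The stretch common to their RefSeq promoter windows is shown because both genes are read from it. It is at chr16:84885471-84885646 of GRCr8, plus strand, whereas the counts were made on mRatBN7.2, and 75.0% of its 176 bases are G or C. The starts are 77 bases apart, and capitals mark the 78 bases from the Col4a2 start (left, minus strand) to the Col4a1 start (right, plus strand).
Col4a1 and Col4a2: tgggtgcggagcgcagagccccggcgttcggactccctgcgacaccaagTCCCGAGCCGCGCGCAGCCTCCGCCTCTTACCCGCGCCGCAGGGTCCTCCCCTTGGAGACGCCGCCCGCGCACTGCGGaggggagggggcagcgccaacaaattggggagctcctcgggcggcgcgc

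Laminins are trimers of an alpha, a beta and a gamma chain, and Lamc1 encodes the gamma1 chain found in most of them. Lamb1, the beta1 chain, had FPKM of 37.3 and 43.9 in control, 27.0, 27.3, 55.1 and 47.7 in SAP and 25.4, 30.3, 33.9 and 32.6 in JZL184 libraries. Lamb2, the beta2 chain of muscle and vessel basement membrane, had 11.7 and 8.89 in control, 5.26, 4.09, 8.22 and 10.1 in SAP and 7.4, 11.8, 27.8 and 10.5 in JZL184 libraries. Lama2 had 0.095 and 0.08 in control, 0.09, 0.17, 0.13 and 0.1 in SAP and 0.06, 0.09, 0.41 and 0.17 in JZL184 libraries. JZL184 library 3, which had the highest smooth muscle and fibroblast marker sums, was also the highest of all libraries for Lamb2 and Lama2. The part of these cells in this was not tested. Estimates against SAP were 1.16 ± 0.46 for Lamb2 (edgeR adjusted p = 0.199; 0.68 without SAP libraries 1 and 2) and 0.73 ± 0.57 for Lama2 (adjusted p = 0.452). Among the rest of the class, Nid1, which encodes nidogen 1, a linker of laminin to collagen IV, had 1.6 in SAP against control and -1.45 in JZL184 against SAP, and Hspg2, which encodes perlecan, had -0.2 and -0.21, none called.

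Small leucine-rich proteoglycans bind fibrils and set their width. Fmod, which encodes fibromodulin, had FPKM of 5.92 and 6.61 in control, 1.1, 1.04, 2.23 and 3.72 in SAP and 1.68, 1.39, 1.95 and 1.28 in JZL184 libraries. All 8 treated libraries were below both control samples, and the SAP and JZL184 libraries overlapped. The JZL184 mean was 0.251 of the control mean (log2 fold change -2.04 ± 0.27, edgeR adjusted p = 0.0174), the SAP estimate against control was -1.75 ± 0.58 (adjusted p = 0.459), and that of JZL184 against SAP was -0.27 ± 0.47 (adjusted p = 0.747). Without SAP libraries 1 and 2 these last 2 estimates were -1.12 and -0.89. Ogn, which encodes osteoglycin, had 0.84 and 1.29 in control, 0.43, 0.58, 0.39 and 0.75 in SAP and 0.63, 0.11, 0.96 and 0.47 in JZL184 libraries, with -1.13 ± 0.42 in SAP against control (adjusted p = 0.459). Its SAP libraries were below control, and JZL184 library 3 was within the control range. Bgn, which encodes biglycan, had 33.8 and 26.7 in control, 21.1, 18.9, 55.9 and 39.8 in SAP and 19.2, 22.0, 37.4 and 17.7 in JZL184 libraries. Its groups overlapped, and SAP libraries 1 and 2 were below control while 3 and 4 were above. Dcn, which encodes decorin, had 1.07 in SAP against control, and Lum, which encodes lumican, had -1.36 in JZL184 against SAP, neither called by edgeR.

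Of the 6 called members, Fmod and Tnc had a promoter window in the RefSeq table, and both windows are shown. The Fmod window is chr13:48045317-48045616 (GRCr8, plus strand), with 52.7% G or C and the letters CCAAT in capitals at -247 from the first transcribed base. The Tnc window is chr5:82476082-82476381 (GRCr8, minus strand), with 52.3% G or C and TATANA in capitals at -208 and -30, the latter reading TATANA on both strands.
Fmod: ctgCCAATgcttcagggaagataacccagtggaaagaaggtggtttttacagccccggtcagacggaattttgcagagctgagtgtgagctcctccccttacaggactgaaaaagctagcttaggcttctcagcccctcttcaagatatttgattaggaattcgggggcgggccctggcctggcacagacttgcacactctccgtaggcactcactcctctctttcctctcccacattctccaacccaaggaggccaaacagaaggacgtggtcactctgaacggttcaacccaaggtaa
Tnc: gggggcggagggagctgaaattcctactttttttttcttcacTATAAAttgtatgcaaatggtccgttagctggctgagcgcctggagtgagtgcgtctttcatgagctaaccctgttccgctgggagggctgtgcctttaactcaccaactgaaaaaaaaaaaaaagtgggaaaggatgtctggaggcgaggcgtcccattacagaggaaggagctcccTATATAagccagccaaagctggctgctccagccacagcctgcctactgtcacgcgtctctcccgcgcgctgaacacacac

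Windows held 250 bases before and 50 after each start, and 33 members had 34 of them. On either strand TATANA was in 14.7% of the members' windows, where 26.5% of all 33469 windows held it, and CCAAT was in 32.4%, where 37.5% of all did. Median G or C content was 59.8% for members and 51.7% for all windows. The 2 motifs can share at most 1 letter at their ends, and a match describes letters, not binding.

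Elastic fibres are built on microfibrils of fibrillin (Fbn1) and its partners, on which elastin (Eln) is deposited with the help of fibulins. Of the 8 genes, edgeR called 0 in each comparison. At an unadjusted p below 0.05, 0 passed in SAP against control, 3 in JZL184 against SAP and 3 in JZL184 against control; DESeq2 called 1, Fbn1, lower than in SAP, and limma-voom called 3 (Mfap4, Efemp1 and Mfap5) lower than in control. Mfap5, a microfibril protein, had FPKM of 1.0 and 0.76 in control, 0.37, 0.51, 1.26 and 1.13 in SAP and 0.22, 0.19, 0.43 and 0.1 in JZL184 libraries. It rested on 3 to 41 reads per library, and its estimates were -1.7 ± 0.59 in JZL184 against SAP (edgeR adjusted p = 0.166) and -1.97 ± 0.59 against control (adjusted p = 0.0949). Fbln5, which encodes fibulin 5, went the other way, with 1.94 and 2.38 in control, 2.59, 2.11, 2.84 and 1.66 in SAP and 1.53, 6.85, 8.36 and 3.37 in JZL184 libraries. JZL184 libraries 2, 3 and 4 were above all SAP libraries and library 1 was below them, with an estimate of 1.32 ± 0.49 (adjusted p = 0.181). Without JZL184 library 1 edgeR called it (1.64, adjusted p = 0.0435; 0.0435 to 0.393 over all alternatives). Fbn1 had 1.21 in SAP against control and -1.58 in JZL184 against SAP, and Eln had 0.4 and -0.53.

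The enzymes Lox, Loxl1 and Loxl2 cross-link collagen and elastin, and Pcolce enhances removal of the procollagen C-propeptide. Lox had FPKM of 0.045 and 0.14 in control, 0.95, 0.76, 0.48 and 0.25 in SAP and 0.46, 0.43, 0.6 and 0.47 in JZL184 libraries, on as few as 3 reads. All treated libraries were above both control samples, with log2 fold changes of 2.54 ± 0.69 in SAP (edgeR adjusted p = 0.459) and 2.38 ± 0.55 in JZL184 against control (adjusted p = 0.0631). Loxl2 had 1.22 and 1.22 in control, 3.11, 4.3, 2.32 and 1.16 in SAP and 0.71, 0.68, 1.11 and 0.69 in JZL184 libraries. Every JZL184 library was below every SAP library and below control, and the estimate against SAP was -1.58 ± 0.36 (adjusted p = 0.089). Pcolce had -0.71, -0.78 and -1.5 in the 3 comparisons and Loxl1 had 0.18, -0.68 and -0.53, none called by edgeR. In every JZL184 library Lox was above control and the other 3 genes were below it.

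Adhesive and matricellular genes held 4 of the 6 calls. Mgp had FPKM of 130.1 and 209.8 in control, 578, 516, 1620.0 and 1153 in SAP and 783, 2120.3, 1234 and 1414 in JZL184 libraries. All treated libraries were above control, and SAP and JZL184 overlapped. The JZL184 mean was 8.17 times the control mean (log2 fold change 3.05 ± 0.54, edgeR adjusted p = 0.0357), and the SAP mean 5.69 times (2.39 ± 0.62, adjusted p = 0.459). Fn1, which encodes fibronectin, had 5.04 and 6.69 in control, 24.3, 25.9, 27.3 and 9.46 in SAP and 22.0, 17.2, 38.4 and 23.0 in JZL184 libraries. No treated library reached down to control, and the JZL184 mean was 4.29 times the control mean (2.05 ± 0.36, adjusted p = 0.0357).

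Tnc, which encodes tenascin C, whose promoter window is shown above, had FPKM of 2.13 and 2.31 in control, 12.1, 12.8, 6.73 and 2.21 in SAP and 6.2, 5.04, 8.08 and 7.45 in JZL184 libraries. The JZL184 libraries lay close together and above control, while SAP library 4 was at the control level. The JZL184 mean was 3.01 times the control mean (1.55 ± 0.28, edgeR adjusted p = 0.0392), and the estimate in SAP was 1.71 ± 0.62 (adjusted p = 0.459). Without SAP libraries 1 and 2, which had the highest values, the SAP estimate was 0.91 with edgeR and 0.89 with DESeq2. Vcan, which encodes versican, a large hyaluronan-binding proteoglycan, had 0.125 and 0.1 in control, 1.6, 1.61, 1.77 and 0.38 in SAP and 0.77, 0.88, 0.42 and 0.27 in JZL184 libraries. All treated libraries were above control, with 3.36 ± 0.66 in SAP (adjusted p = 0.366) and 2.35 ± 0.58 in JZL184 against control (adjusted p = 0.0679). Fn1, Tnc and Vcan were all lowest in library 4 among the SAP libraries, and none of them passed in JZL184 against SAP.

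Fbln1, which encodes fibulin 1, a fibronectin-binding protein, fell, with FPKM of 12.6 and 9.05 in control, 5.5, 7.18, 9.5 and 7.01 in SAP and 1.9, 2.84, 2.78 and 2.02 in JZL184 libraries. Every JZL184 library was below every SAP and control sample, at 0.22 of the control mean (-2.22 ± 0.32, edgeR adjusted p = 0.022), and against SAP the estimate was -1.45 ± 0.3 (adjusted p = 0.0851). Sparc had 102.8 and 104.7 in control, 107, 88.1, 143 and 99.3 in SAP and 48.5, 51.2, 86.1 and 41.3 in JZL184 libraries. Sparcl1 had 68.2 and 68.1 in control, 50.3, 103, 61.2 and 52.6 in SAP and 27.4, 20.6, 67.7 and 45.5 in JZL184 libraries. All JZL184 libraries were below control for both, and for Sparc also below SAP, but neither was called. Postn, which encodes periostin, had estimates of 0.87, -0.03 and 0.8 in the 3 comparisons.

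**Figure D3:**
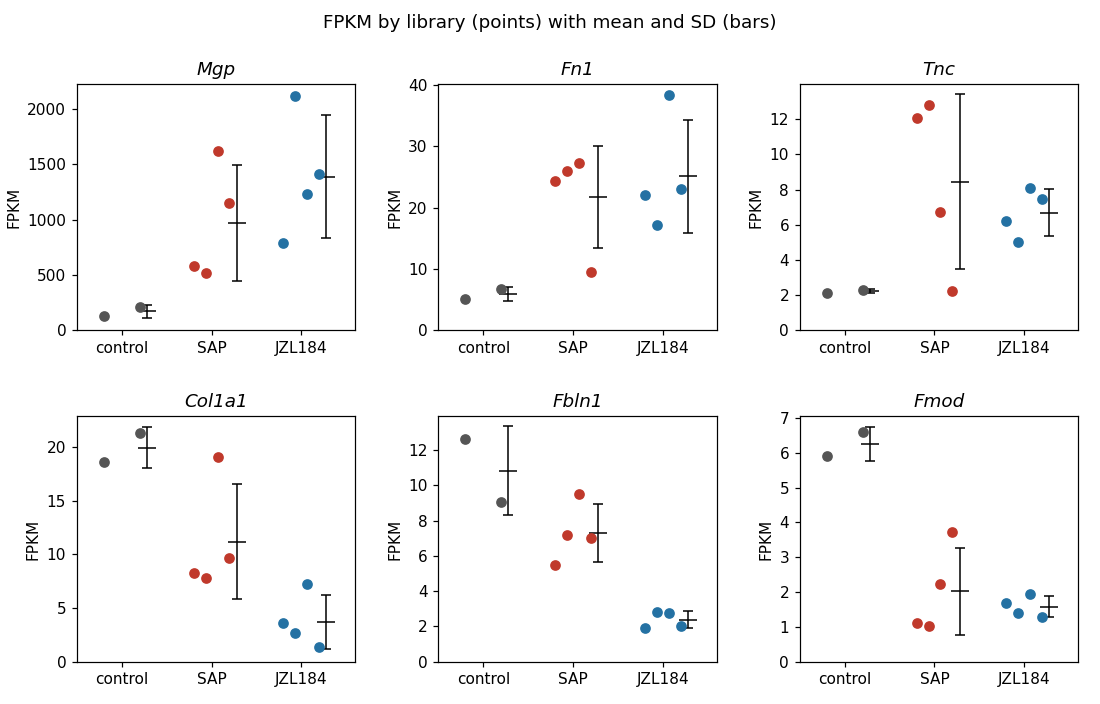
FPKM (y axis, from 0) of the 6 called members in each library (points) of the 3 groups (x axis), with bars for the mean and SD of 2 control samples, 4 SAP and 4 JZL184 libraries. JZL184 libraries are above control for Mgp, Fn1 and Tnc and below it for Col1a1, Fbln1 and Fmod, without overlap.

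In the plot of the called members, SAP library 4 was the lowest SAP library for Fn1 and Tnc and the highest for Fmod. Marker sums of other cells moved as well. The 7 epithelial markers summed to 34170 to 38210.0 FPKM in control, 9974 to 23100.0 in SAP and 6088 to 16060.0 in JZL184 libraries. Most of the control sum lay in Fabp6 and Krt20, with means of 21150 and 7157 FPKM, and Fabp6 ranged from 79.92 to 9000.4 in JZL184 libraries. Epcam had group means of 3464, 2789 and 3012 FPKM, and Cdh1 had 111.6, 143.7 and 172.4. All but Cdh1, or 6 of 7, had estimates below 0 in JZL184 against control. The 6 smooth muscle markers summed to 1872 to 2064, 801 to 2023 and 366.7 to 2115, and 6 of 6 had estimates below 0; JZL184 library 3 was above control and the other 3 JZL184 libraries were below it. The 5 endothelial markers summed to 17.7 to 18.7, 20.8 to 36.3 and 22.7 to 35.4, and the 4 adipose markers to 169 to 293, 209 to 476 and 371 to 641. Both sums were above control in every JZL184 library. Fabp4 held most of the adipose sum, with group means of 206.5, 338.9 and 453.4 FPKM. Of the adipose markers, 2 had estimates above 0 and 2 below in JZL184 against control. The 5 fibroblast markers that are not members summed to 45.5 to 49.5, 34.2 to 50.2 and 28.5 to 64.2, with 2 of 5 below 0. EdgeR called none of these markers in any comparison. In JZL184 against control, DESeq2 and limma-voom each called 3 epithelial and 2 smooth muscle markers lower. Limma-voom also called 1 fibroblast marker higher, 1 fibroblast marker lower and 1 adipose marker higher there. In JZL184 against SAP, DESeq2 called 1 fibroblast marker lower. No marker of these lists was at 0 in any library, and their part in the calls was not tested.

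Chains of 1 protein were compared as ratios of FPKM within a library, which cancels the size of the library. The ratio of Col1a1 to Col1a2 was 1.77 and 1.96 in control, 0.804, 0.811, 1.29 and 1.23 in SAP and 0.675, 0.872, 1.03 and 0.528 in JZL184 libraries. All treated libraries were below both control samples; the log2 ratio differed by -1.31 between JZL184 and control (two-sided exact permutation p = 0.0667, the smallest that 4 against 2 samples allow; adjusted p = 0.36 over 18 tests). The ratio of Col4a1 to Col4a2 was 1.86 and 1.65 in control, 2.23, 1.95, 1.78 and 1.71 in SAP and 1.69, 1.04, 1.23 and 1.45 in JZL184 libraries. Every JZL184 library was below every SAP library, by -0.52 on the log2 scale (exact permutation p = 0.0286, the smallest that 4 against 4 allow; adjusted p = 0.36). The ratios of Col6a1 and Col6a3 to Col6a2 ranged from 0.401 to 1.26 and from 0.0333 to 0.195, and were highest in SAP libraries 1 and 2. The ratio of Lamb2 to Lamc1 was 1.92 and 1.98 in control, 0.347, 0.207, 0.804 and 2.11 in SAP and 1.46, 2.83, 2.77 and 1.85 in JZL184 libraries, with a log2 difference of 1.86 between JZL184 and SAP (exact permutation p = 0.0857, adjusted p = 0.36). None of the 18 tests passed after adjustment.

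**Figure D4:**
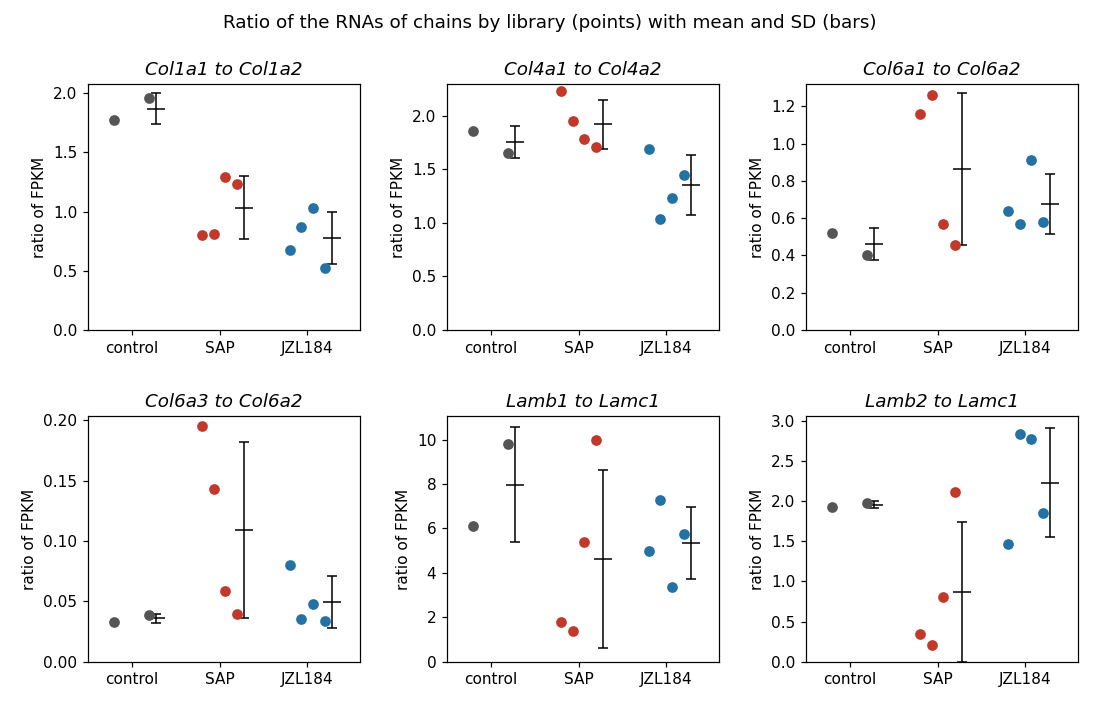
Ratio of the FPKM of 2 chains (y axis, from 0) in each library (points) of the 3 groups (x axis), with bars for the mean and SD. The ratio of Col1a1 to Col1a2 is lower in all treated libraries than in control, and that of Col4a1 to Col4a2 is lower in all JZL184 than in all SAP libraries.

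The plot of chain ratios also shows that SAP libraries 1 and 2 lie together, away from libraries 3 and 4, in the ratios of collagen VI and of Col1a1 to Col1a2. Of the SAP libraries, 1 and 2 were lowest in the ratios of Lamb1 and Lamb2 to Lamc1. Library 3 was between (5.39 and 0.804) and library 4 was highest (10.0 and 2.11). Matrix transcripts are long, with a median length of 5579 bases for members and 3455 to 3515 over the genes tested. Across the 49 members, length and log2 fold change had a Spearman correlation of 0.41 in SAP against control, -0.07 in JZL184 against SAP and 0.37 in JZL184 against control (Pearson 0.28, -0.11 and 0.18), and across all genes it was 0.42, -0.2 and 0.18. These correlations are across genes that share the same libraries, and genes are not replicates. With offsets that remove the trend of each library on length, those of the members were 0.2, 0.06 and 0.24, and Tnc missed the threshold in JZL184 against control (adjusted p = 0.0525; 1.54e-07 to 0.509 over all alternatives).

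Lists around the members gave few calls with edgeR. Of 21 enzymes that hydroxylate, fold or cut collagen, 20 were listed and edgeR called 0 in each comparison, with 16 of 20 estimates above 0 in SAP and 6 of 20 in JZL184 against control. At an unadjusted p below 0.05, 0 passed in SAP against control, 1 higher and 8 lower in JZL184 against SAP and 1 higher and 5 lower in JZL184 against control. DESeq2 called 0 in the first, 1 higher and 2 lower in the second and 1 higher and 1 lower in the third, and limma-voom 0, then 1 higher and 3 lower in each of the other comparisons. In JZL184 against SAP the prolyl hydroxylase subunit genes P4ha1 and P4ha3 had -1.99 (edgeR adjusted p = 0.0851) and 1.75 (adjusted p = 0.0866), and P4ha3 was the less abundant, at most 0.57 FPKM in any library. Serpinh1, the collagen chaperone, had 0.72 in SAP against control (edgeR adjusted p = 0.511), -2.23 in JZL184 against SAP (adjusted p = 0.0876) and -1.53 in JZL184 against control (adjusted p = 0.094). In the TGF-beta pathway, which drives matrix transcription, Thbs1 rose in JZL184 against control. Thbs1, which encodes thrombospondin 1, had 0.92 ± 0.679 FPKM in control, 12.68, 15.02, 3.45 and 1.38 in SAP libraries 1 to 4 and 7.3 ± 3.95 in JZL184 libraries (log2 fold change against control 2.97, edgeR adjusted p = 0.0489). Of 23 receptors for matrix, 1 rose, Itga5, the alpha5 chain of the fibronectin receptor, with 1.46 ± 0.233, 3.72 ± 0.846 and 8.89 ± 5.63 FPKM (2.54, adjusted p = 0.0499). EdgeR called no gene of these 3 lists in the other 2 comparisons, where 6 genes of the TGF-beta pathway and 5 receptors had an unadjusted p below 0.05 in SAP against control and 2 and 7 did in JZL184 against SAP. DESeq2 called 2 and 0 in the former and 1 and 6 in the latter, and limma-voom called 0 and 0, and 1 and 1. In JZL184 against control both lists also held genes that were lower. At an unadjusted p below 0.05, 5 genes of the TGF-beta pathway were higher and 4 lower, as were 5 and 4 receptors. There DESeq2 and limma-voom each called 3 pathway genes higher and 4 lower, and 4 receptors higher and 3 lower.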

How the data were processed

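Read counts and FPKM per gene were available for 3 control, 4 SAP and 4 JZL184 libraries, grouped by the treatment in the labels. The authors trimmed reads, aligned them with HISAT2 to mRatBN7.2 (at most 4 mismatches, reads under 16 nt removed) and deposited the count of uniquely aligned reads per gene without normalization. The authors also deposited FPKM with 2 decimals. Counter and annotation: not given in the sources used here.

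Control libraries 1 and 2 were summed (FPKM averaged) to 1 sample. Each pair of groups was fitted with edgeR 4.0.16 (R 4.3.3; TMM, quasi-likelihood test, default filter with a minimum count of 10), and p-values were adjusted over all genes tested. Alternatives were DESeq2 1.42.0, limma-voom with quality weights (limma 3.58.1), other filters, scalings and covariates, and leaving out libraries. The edgeR, DESeq2 and limma-voom fits were also run on simulated counts. Changes were planted only in genes with many reads, so the simulation does not cover genes with few reads, and no result here rests on it. Chain ratios were compared with two-sided exact permutation tests. Gene length was taken from counts and FPKM, and length offsets used a loess span of 0.3. Promoter windows were those of RefSeq (GRCr8) matched by symbol for 33 members, and the other members were not matched. Depth was 26341299 reads or more per library, so spread between samples limited precision more than counting, except for genes with few reads. The labels give no separate animals for the replicates beyond their numbers, so p-values measure the spread between these samples.

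The members, gene lists and tests were chosen with earlier results of these data known. FPKM of every library is given for called members, for the 3 members with the highest and the 3 with the lowest log2 fold change of each comparison and for the 10 members with the highest mean FPKM. Other members are given by range, count or log2 fold change, or named where a count of calls needed their names, after their values were seen. Lists were also fixed for collagen-modifying enzymes, the TGF-beta pathway, matrix receptors, fibroblasts, smooth muscle, endothelium, mesothelium, adipose tissue, ileal epithelium, enteric glia and neurons and immune cells. One gene of these lists is not reported here.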

Additional observations from a re-analysis of the deposited data

Results flagged for a closer look

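Within the groups of 4, the highest or lowest FPKM of a member lay far from the other 3 libraries (Dixon's criterion at 95%) in 9 of 98 tests. The criterion flags about 1 in 20 of independent tests on normally distributed values. Members share the same libraries, so that rate is no yardstick for the 9 flags. JZL184 library 3 gave 4 of the 9 flags as the highest value, with 44.99 for Col6a1, 19.49 for Postn, 1.11 for Loxl2 and 1.6 for Efemp1. Its smooth muscle markers summed to 2115 FPKM against 366.7 to 939.7 in the other JZL184 libraries, and its fibroblast and endothelial sums were also the highest of its group. SAP library 3 was highest for Col1a1 (19.09) and Eln (15.12). SAP library 4 was lowest for Fn1 (9.46) and Vcan (0.38), and JZL184 library 2 was lowest for Col4a5 (0.09). The cause of these values was not tested.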

How the results depend on the processing

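Over 824 alternatives of 106 results, 686 were counted as unchanged. For estimates this meant the same direction and side of the threshold, and for counts of calls an equal or similar number. The setting without a fold change threshold reused the reported fit, so its estimates could not differ. The median log2 fold change of the members stayed within 0.15 to 0.41 (SAP against control), -0.87 to -0.46 (JZL184 against SAP) and -0.49 to -0.25 (JZL184 against control) when single samples were left out. For SAP against control, the number of members called was 0 in the reported fit, 4 with DESeq2, 12 with DESeq2 and 3 control libraries, and, without SAP libraries 1 and 2, 1 with edgeR and 3 with DESeq2. Calls over all genes were 0 as reported, 33 with 3 control libraries, 203 with DESeq2 and 1468 with DESeq2 and 3 control libraries, 14 with limma-voom, 14 with no filter, 4 with all groups in 1 fit, and 74 (edgeR) and 233 (DESeq2) without SAP libraries 1 and 2; leaving out single samples gave 0 to 3. For JZL184 against SAP, the members called were 0 as reported, 10 with DESeq2, 7 with limma-voom, 1 with all groups in 1 fit and 3 with DESeq2 without SAP libraries 1 and 2, and 0 to 1 when single samples were left out. Calls over all genes were 0 as reported, 1283, 699 and 207 with the first 3 of these settings, 27 with no filter, 22 with gene length offsets, 718 with DESeq2 without SAP libraries 1 and 2, and 0 to 655 when single samples were left out (655 without JZL184 library 1). For JZL184 against control, the members called were 6 as reported, 13 with 3 control libraries, 11 with DESeq2, 14 with DESeq2 and 3 control libraries, 17 with limma-voom, 10 with no filter, and 0 to 12 when single samples were left out. Calls over all genes were 343 as reported, 2800, 1952, 3498, 2906 and 929 under the same settings in turn, and 0 to 1867 when single samples were left out (0 without the merged control sample, 1 without control library 3, 25 and 78 without JZL184 libraries 2 and 4, 860 without library 3 and 1867 without library 1). Leaving out a control sample left 1 control sample, assumed to vary like the JZL184 libraries. The cause of these differences was not tested.

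Estimates near 0 changed sign in JZL184 against SAP. Tnc (-0.13) was 0.17 with limma-voom, 0.21 with gene length offsets, 0.65 (edgeR) and 0.64 (DESeq2) without SAP libraries 1 and 2, and -0.43 to 0.12 when single samples were left out (0.08 without SAP library 1 and 0.12 without library 2). Fmod (-0.27) was -0.51 to 0.29 when single samples were left out (0.29 without SAP library 4). Without SAP libraries 1 and 2, the log2 difference of the ratio of Col6a1 to Col6a2 was 0.38 where it was -0.25 and that of Lamb1 to Lamc1 -0.51 where it was 0.6. The settings without both SAP libraries that joined DESeq2 or concerned ratios were chosen after seeing the data.

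Deviations of libraries of the same number had correlations of -0.303 to -0.15 in SAP against control. These correlations were -0.449 to 0.123 in JZL184 against SAP and -0.0967 to 0.114 in JZL184 against control. Deviations within a group of so few libraries depend on each other. The correlations therefore cannot decide whether libraries of the same number share more than that number. With the replicate number as a block and 3 control libraries, 0 members and 1 gene of all were called in SAP against control and 11 and 1488 in JZL184 against control; with gene length offsets added these were 1 and 7, and 9 and 1272. The block called 0 members and 0 genes in JZL184 against SAP, with or without offsets. There the block moved Tnc to 0.06 and Fmod to 0.0, and with offsets to 0.29 and 0.06.

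Genes with few reads, such as Lox and Mfap5 with as few as 3 reads in a library, are imprecise, and 2 control samples limit every comparison with control.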

Other observations

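Among markers of other cells, edgeR called 1 gene. Jchain, the joining chain of IgA and IgM made by plasma cells, had 104 ± 19.1 FPKM in control, 67.9 ± 21.2 in SAP and 23.7 ± 7.53 in JZL184 libraries, a log2 fold change of -2.14 in JZL184 against control (edgeR adjusted p = 0.035). Of the other 5 immune markers, S100a8, a gene of neutrophils, had 0.0, 0.26 and 0.63 FPKM in control libraries 1 to 3, 3.56 to 39.55 in SAP and 6.33 to 148.71 in JZL184 libraries, so all treated libraries were above control. Its log2 fold changes, which rest on few control reads, were 5.58 in SAP (edgeR adjusted p = 0.459) and 7.35 in JZL184 against control (adjusted p = 0.0594). In JZL184 against control Ptprc and Cd68 had 0.87 and 0.28, and Cd3e and Ms4a1 had -0.88 and -0.32, none called by edgeR. Of the 6 immune markers, DESeq2 called 1 higher in SAP against control and 1 lower in JZL184 against SAP, and in JZL184 against control DESeq2 and limma-voom each called 1 higher and 1 lower. The 5 endothelial markers summed to 17.7 to 18.7 FPKM in control, 20.8 to 36.3 in SAP and 22.7 to 35.4 in JZL184 libraries, so all treated libraries were above both control samples, with 0 called by edgeR and by DESeq2 and 0, 1 and 1 at an unadjusted p below 0.05 in the 3 comparisons. The 4 adipose markers summed to 169 to 293, 209 to 476 and 371 to 641 FPKM, most of it from Fabp4. Those of mesothelium (4 genes) summed to 1.76 to 2.17, 1.01 to 5.35 and 0.4 to 2.47, and those of enteric glia and neurons (5 genes) to 4.55 to 5.84, 5.25 to 7.07 and 3.86 to 7.73. EdgeR and DESeq2 called none of these 3 lists in any comparison, and limma-voom called 1 adipose marker higher and 1 mesothelial marker lower in JZL184 against control.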
